A study of Homo sapiens with 15 samples.

Results

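CEP290, KIAA1958, RNF150 and NMNAT1 were followed in NCI-H69 cells after exposure to either of a pair of inhibitors of the RNA demethylase FTO. The 4 genes are the rows of the read-count table whose Ensembl IDs carry these symbols, out of 62754 gene IDs, of which 19781 had enough reads to be tested. All 4 were tested. They were selected on the measured log2 fold changes of all 9 libraries used here: lower with CS2 and higher with FB23-2 than with the solvent DMSO. The direction and size of those differences are therefore given as a description, without a test.

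NCI-H69 is an established human cell line of small cell lung carcinoma of the classic type, a neuroendocrine tumour. The labels name no transgene or edited allele, and the 3 groups differed by their labels in treatment alone: DMSO, CS2 and FB23-2, with 3 libraries each, which the series calls biological replicates. The sources used here give neither dose nor duration. CS2 is known outside this series as brequinar, a compound that also inhibits dihydroorotate dehydrogenase, an enzyme of pyrimidine synthesis. The 6 labelled libraries of a second line, H82, were not analysed here.

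FTO removes the methyl group of N6-methyladenosine, a mark that many messenger RNAs carry, often within a GGACT sequence, and that affects their stability and translation. The products of the 4 genes have separate roles. CEP290 sits at the centrosome and in the transition zone, the gate at the base of the primary cilium, and its loss causes Joubert syndrome and Leber congenital amaurosis. NMNAT1 makes NAD in the nucleus and is also a gene of Leber congenital amaurosis. RNF150 belongs to the PA-TM-RING family, membrane-anchored ubiquitin ligases. KIAA1958 is poorly characterised, and part of it derives from a Crypton DNA transposon.

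Total counts ran from 29916267 to 45022633 a library, so that 3 counts correspond to between 0.0666 and 0.1 counts-per-million (CPM) of the raw total. The CPM values of genes are scaled by the TMM-adjusted library size. Mitochondrially encoded genes took 5.18% to 5.69% of counts with DMSO, 7.3% to 9.05% with CS2 and 6.83% to 11% with FB23-2, the highest share being in FB23-2 replicate 2. That library stood apart: the chi-square statistic per degree of freedom between it and the other FB23-2 libraries was 48.94 and 46.95, against 4.155 to 14.02 for every other pair within a group. The values of the 4 genes, and the pathway and family counts that changed without it, are given both ways. The neuroendocrine markers INSM1, CHGA, SYP, NCAM1, DLL3 and GRP were all expressed, at 52.7 CPM (DLL3) to 859 CPM (INSM1) with DMSO. Of 8 markers of fibroblasts, blood and endothelium, 4 were tested; DCN and CD3E had 0 counts in every library, while COL1A2 reached 53.0 CPM with DMSO.

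The sequences before the start sites are printed so that the motif matches of the 4 promoters can be seen in place. Each line gives up to 180 bases upstream of the RefSeq start (GRCh38.p14), 5′ to 3′ on the gene's strand, without bases that lie in an exon of the gene in GENCODE 29. Capitals mark matches to 10 short motifs that were searched on both strands.
CEP290 (chr12:88142217-88142268, minus strand): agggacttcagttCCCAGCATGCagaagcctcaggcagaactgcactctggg
KIAA1958 (chr9:112486647-112486826, plus strand): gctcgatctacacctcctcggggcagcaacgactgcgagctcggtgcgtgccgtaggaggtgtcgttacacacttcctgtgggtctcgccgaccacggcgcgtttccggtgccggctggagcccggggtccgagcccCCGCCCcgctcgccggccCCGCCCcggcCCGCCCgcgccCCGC
RNF150 (chr4:141133470-141133649, minus strand): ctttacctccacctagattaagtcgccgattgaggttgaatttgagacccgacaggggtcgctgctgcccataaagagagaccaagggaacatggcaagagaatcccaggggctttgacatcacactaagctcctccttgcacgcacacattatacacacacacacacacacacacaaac
NMNAT1 (chr1:9943295-9943427, plus strand): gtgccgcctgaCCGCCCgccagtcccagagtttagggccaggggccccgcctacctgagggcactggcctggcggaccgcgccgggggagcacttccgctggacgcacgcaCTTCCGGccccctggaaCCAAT

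In the whole window of 250 bases before to 50 bases after the start, no motif was present in all 4 genes. The GC box GGGCGG occurred in 3 of them, 5 times in KIAA1958 and once each in CEP290 and NMNAT1, and in 45.0% of the 35116 RefSeq promoter windows. The KIAA1958 line ends inside a further box that runs over the start. CEP290 held the core of the ZNF143 motif, the stretch in capitals in its line, which 0.333% of all windows hold. NMNAT1 held CCGGAAG, the core of ETS factors, at 2 places (10.3% of windows have it) and a CCAAT box (34.6%). The CEP290 and NMNAT1 windows also contain the starts of head-to-head neighbours, TMTC3 (88142296) and LZIC (9943407). Motifs there cannot be assigned to either gene alone. The RNF150 window held none of the motifs. Its start follows a CA repeat and lies inside the gene, whose span runs to 141212877 in GENCODE 29 and 141212900 in RefSeq. The bases before that outer start of RNF150 were not searched. Likewise, NMNAT1 begins at 9942923 in RefSeq, outside its searched window, and the bases before that start were not searched. The ATF4 element TGATGNAA (3.62% of windows), the cAMP response element TGACGTCA (1.85%), the E-box CACGTG (7.26%), the NRF1 motif (1.24%), the antioxidant response element TGACNNNGC (13.3%) and the palindromic X-box (0.0285%) were in none of the 4. GC content was 59.7% in CEP290, 76.7% in KIAA1958, 51.0% in RNF150 and 69% in NMNAT1, against a median of 58.7%, and the windows held 22, 48, 13 and 27 CpG dinucleotides in that order, against a median of 14.

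CEP290 (ENSG00000198707) covers 93.2 kb of chromosome 12 (GRCh38, 88049014 to 88142216, minus strand) with up to 54 exons. Its level was 33.8, 44.8 and 44.1 CPM in the DMSO libraries, in the order of replicates. With CS2 it was 11.8, 14 and 14.2 CPM, and with FB23-2 it was 88.1, 125 and 87.7 CPM. The highest CS2 library lay 2.37-fold below the lowest DMSO library, and the lowest FB23-2 library lay 1.96-fold above the highest DMSO library. The mean fell from 40.9 ± 6.19 CPM (SD, n = 3) with DMSO to 13.3 ± 1.33 with CS2, and was 100.4 ± 21.7 with FB23-2. The fitted log2 fold change was -1.62 ± 0.15 (SE) for CS2, a 3.07-fold lower level, and 1.30 ± 0.14 for FB23-2, a 2.46-fold higher level. The 2 treated groups were 7.53-fold apart (2.91 ± 0.15 on the log2 scale). In RNA from bulk cells, fewer cells of a kind and less RNA in each cell cannot be told apart. The last exons overlap those of C12orf29 on the other strand over 401 bases, 3.86% of the exon bases of CEP290, and the strand setting of the counting is not given.

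KIAA1958 (ENSG00000165185) covers 182.6 kb of chromosome 9 (112486847 to 112669397, plus strand) with up to 5 exons. The 3 DMSO libraries were close together, at 45.1, 44.3 and 43.5 CPM. With CS2 the level was 15.8, 16.3 and 14.1 CPM, and with FB23-2 it was 89.2, 118 and 86.7 CPM. All CS2 libraries were below and all FB23-2 libraries above the DMSO range, by gaps of 2.67-fold and 1.92-fold. The log2 fold change was -1.53 ± 0.11 for CS2 (2.88-fold lower) and 1.15 ± 0.11 for FB23-2 (2.21-fold higher), and 2.67 ± 0.11 between the treated groups (6.38-fold). With a coefficient of variation of 1.78%, KIAA1958 was the steadiest of the 4 genes among the DMSO libraries, where CEP290 had 15.1%, RNF150 5.34% and NMNAT1 11.0%. Of its exon bases, 1.07% overlap the antisense gene HSDL2-AS1.

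RNF150 (ENSG00000170153) has the longest span, 353.1 kb of chromosome 4 (140859807 to 141212877, minus strand), with up to 8 exons and no exon base shared with another gene. Its level was 26.6, 27.0 and 29.3 CPM with DMSO. It was 12.0, 12.5 and 12.1 CPM with CS2 and 52.0, 74.6 and 55.2 CPM with FB23-2. The CS2 libraries differed from each other by less than those of any other gene of the 4, with a coefficient of variation of 2.12%. The log2 fold change was -1.18 ± 0.12 for CS2 (2.27-fold lower), 1.13 ± 0.11 for FB23-2 (2.19-fold higher) and 2.31 ± 0.12 between the treated groups (4.97-fold). Corrected for the genomic span and GC content of genes, the CS2 value was -0.45 and the FB23-2 value 1.16.

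NMNAT1 (ENSG00000173614) covers 42.1 kb of chromosome 1 (9943428 to 9985501, plus strand) with up to 6 exons, and was the weakest of the 4 genes. Its counts were 120, 82 and 144 with DMSO, or 3.16, 2.61 and 3.20 CPM. With CS2 they were 43, 33 and 21, or 1.27, 1.11 and 0.699 CPM. With FB23-2 they were 174, 180 and 147, or 5.19, 4.31 and 4.29 CPM. The groups did not overlap, but the gap between the highest DMSO and the lowest FB23-2 library was only 1.34-fold. The log2 fold change was -1.54 ± 0.23 for CS2 (2.90-fold lower), 0.61 ± 0.20 for FB23-2 (1.53-fold higher) and 2.15 ± 0.23 between the treated groups (4.45-fold). At an adjusted p under 0.05 in edgeR, the call of NMNAT1 with FB23-2 was lost without DMSO replicate 2 and without FB23-2 replicate 1. The log2 fold change was 0.53 in both. A sense-intronic gene overlaps 9.46% of its exon bases, and 11.71% of the 50-base windows of its transcripts occur in other genes as well, which leaves its count uncertain to that extent.

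**Figure D1:**
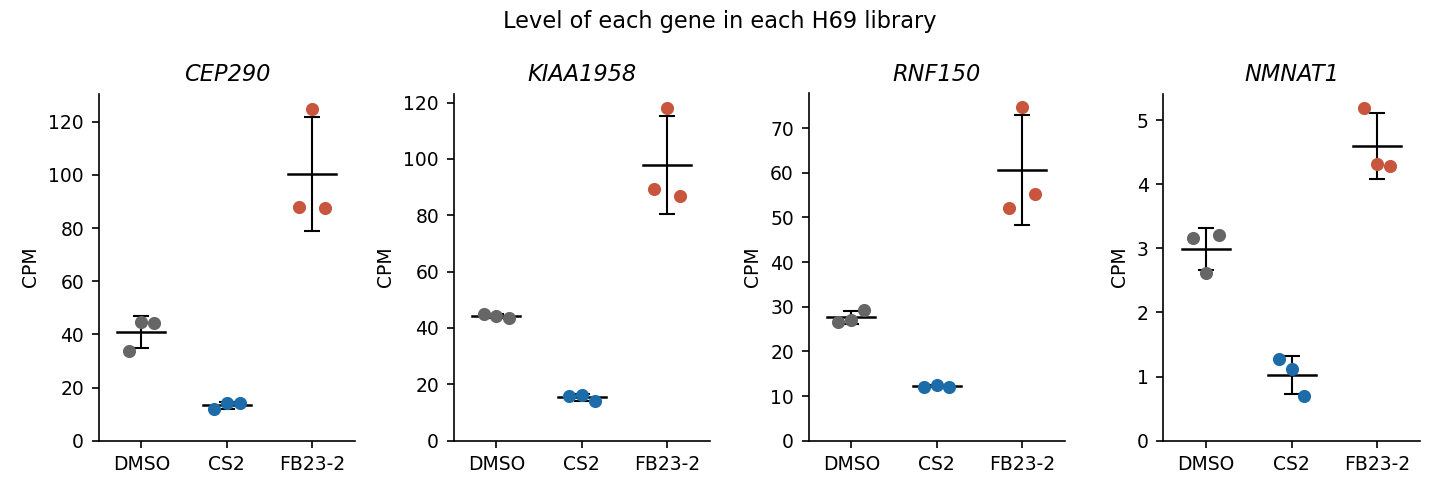
Level of each gene (CPM, linear axis from 0) in the 9 H69 libraries; points are libraries, the horizontal line is the group mean and the error bar 1 SD (n = 3). In every panel the CS2 libraries lie below and the FB23-2 libraries above all DMSO libraries; for CEP290, KIAA1958 and RNF150 FB23-2 replicate 2 is the highest point, at 125, 118 and 74.6 CPM.

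FB23-2 replicate 2 was above the mean of the other FB23-2 libraries by 1.43-fold for CEP290, 1.34-fold for KIAA1958 and 1.39-fold for RNF150, but was at 0.911 of it for NMNAT1. Without that library the log2 fold change with FB23-2 was 1.11 for CEP290, 0.99 for KIAA1958, 0.96 for RNF150 and 0.66 for NMNAT1. The rise was thus present in the other 2 libraries of each gene.

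Per kilobase of exon, which allows levels of different genes to be set side by side, CEP290 stood at 3.94 ± 0.596 CPM per kb with DMSO (SD, n = 3), KIAA1958 at 3.38 ± 0.0601, RNF150 at 2.51 ± 0.134 and NMNAT1 at 0.648 ± 0.0715. The order of these means was the same in all 3 groups. With CS2 they were 1.29 ± 0.128, 1.17 ± 0.0878, 1.11 ± 0.0235 and 0.222 ± 0.0636, and with FB23-2 9.67 ± 2.09, 7.47 ± 1.33, 5.51 ± 1.11 and 0.997 ± 0.111. CEP290 and KIAA1958 overlapped in their library values in every group. KIAA1958 and RNF150 overlapped with CS2 and with FB23-2 but not with DMSO, and NMNAT1 was below the other 3 throughout.

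At an adjusted p under 0.05 in edgeR's quasi-likelihood test (Benjamini-Hochberg over all genes), 826 genes were lower with CS2 and higher with FB23-2. They were 4.18% of the genes tested. CS2 lowered 25.3% and raised 24.3% of all genes, and FB23-2 lowered 26.7% and raised 25.4%. The opposite arrangement, higher with CS2 and lower with FB23-2, held 894 genes (4.52%), while 2027 genes were lower with both (10.2%) and 1945 higher with both (9.83%). Both comparisons share the DMSO libraries. Without FB23-2 replicate 2 the pattern of the 4 genes held 818 genes. Just inside the threshold was TMEM170A, with log2 fold changes of -0.28 and 0.58, and just outside it ZFAND3, with -0.67 and 0.21.

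Of the 826 genes, 79 were past 2-fold in both directions, of which 21 reached a mean of 10 CPM in some group, 18 of them protein coding. CEP290, KIAA1958 and RNF150 are among these 18, and NMNAT1 is not. Ranked by the smaller of the 2 absolute log2 fold changes, CEP290 was 35th, KIAA1958 53rd, RNF150 54th and NMNAT1 224th of the 826. Among the protein-coding genes with at least 10 CPM the first 3 stood at places 5, 9 and 10. The complement component gene C5 came first there, with log2 fold changes of -2.46 and 1.67, and the water channel gene AQP4 followed with -3.69 and 1.53. These ranks describe a pattern that the choice of genes used.

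**Figure D2:**
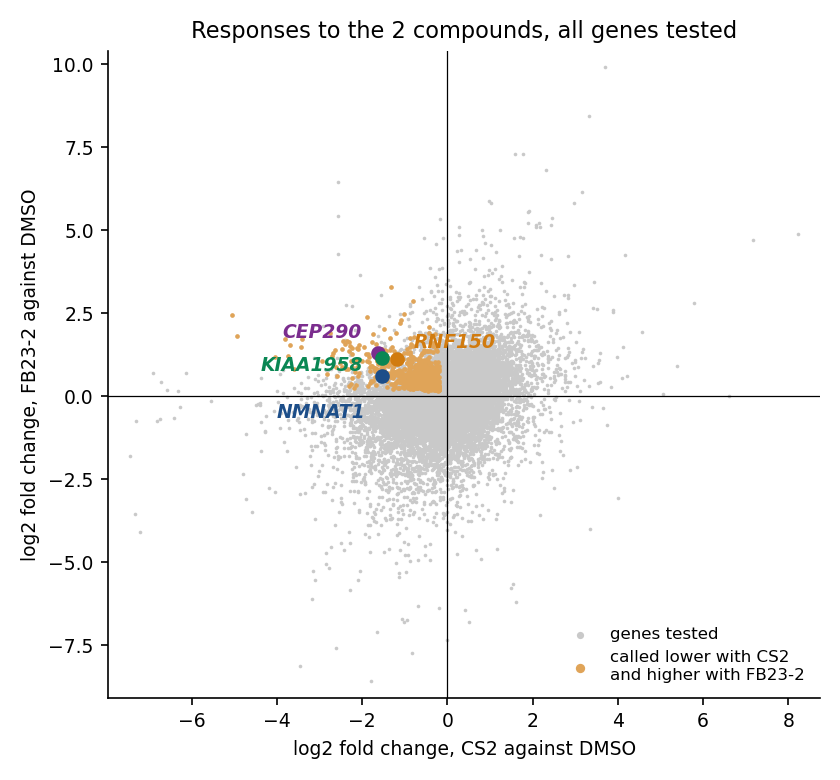
Log2 fold change with CS2 (x axis) against that with FB23-2 (y axis), both against the same DMSO libraries, for the 19781 genes tested; orange points are the 826 called lower with CS2 and higher with FB23-2. CEP290, KIAA1958 and RNF150 lie close together at the outer side of the orange points, and NMNAT1 lies below them at 0.61 on the y axis.

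Likeness of pattern was measured as the root mean square difference of log2 CPM over the 9 libraries, each gene centred on its DMSO mean, among 12463 protein-coding genes averaging 1 CPM or more. The nearest genes to CEP290 were PCLO (0.13, Pearson r = 0.996), FSTL5 (0.17, r = 0.993) and KIAA1958 itself (0.19, r = 0.991). PCLO encodes Piccolo, a scaffold of the presynaptic active zone, and was at 172 CPM with DMSO, 60.8 with CS2 and 393 with FB23-2. PCLO (0.12) and FSTL5 (0.14) were also the nearest to KIAA1958, followed by the receptor gene VN1R1 (0.17), which was at 1.49 CPM with DMSO. RNF150 had the closest match of all in PLCL1, at 0.06 (r = 0.998), then ASB3 and COG5, both at 0.11. PLCL1 was at 7.46 CPM with DMSO, 3.38 with CS2 and 15.9 with FB23-2, on a lower level than RNF150 but with log2 fold changes of -1.14 and 1.10. NMNAT1 was nearest to AKR1E2 (0.20), GATAD1 (0.24) and SBF2 (0.25).

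Among the 4 genes themselves, CEP290 and KIAA1958 were 0.19 apart, KIAA1958 and RNF150 0.22, and CEP290 and RNF150 0.29. NMNAT1 was farther from each of them, at 0.38 from KIAA1958, 0.45 from RNF150 and 0.53 from CEP290. By Pearson correlation alone, which ignores the size of the change, the nearest genes were mostly others: of the 3 nearest, 1 was shared between the measures for KIAA1958 (VN1R1), 1 for RNF150 (PLCL1) and 0 for CEP290 and NMNAT1. Ranked by distance among the same candidates, KIAA1958 was 3rd, RNF150 12th and NMNAT1 74th from CEP290. RNF150 was 9th and NMNAT1 45th from KIAA1958, and NMNAT1 was 177th from RNF150. All these values share the same 9 libraries. The 4 genes were chosen there for a shared pattern, so small distances among them follow from the choice.

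Responses to CS2 varied with the genomic span of a gene, from the first to the last base of its annotation. Protein-coding genes of 10 to 50 kb had a median log2 fold change of 0.14 with CS2 (5987 genes), those of 200 to 500 kb -0.57 (962 genes) and those above 500 kb -1.36 (261 genes). The medians with FB23-2 in the same classes were 0.04, -0.05 and -0.30. The share of genes lower with CS2 and higher with FB23-2 was 3.11% at 10 to 50 kb, 5.8% at 50 to 100 kb, 8.26% at 100 to 200 kb, 14.8% at 200 to 500 kb and 9.58% above 500 kb.

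By the spans used for these classes, each of the 4 genes falls in another class. For NMNAT1 this depends on the annotation: its RefSeq span is 54.0 kb, which lies in the 50 to 100 kb class, with CEP290. The place of NMNAT1 within that class was not counted. NMNAT1, in the 10 to 50 kb class, had 93 genes lower than it with CS2 and 870 higher than it with FB23-2. CEP290 (50 to 100 kb) had 48 of 2429 genes below it with CS2 and 93 above it with FB23-2, and KIAA1958 (100 to 200 kb) had 41 and 83 of 1706. RNF150 had 160 of 962 below it with CS2 and 40 above it with FB23-2. The 4 genes were chosen on these same changes, so their places within the classes are a description only. After each library was corrected for span and GC content, the log2 fold change of RNF150 with CS2 was -0.45 in place of -1.18, whereas with FB23-2 it was 1.16. The corrected values with CS2 were -1.54 for CEP290, -1.26 for KIAA1958 and -1.62 for NMNAT1, and with FB23-2 they were 1.04, 1.10 and 0.51.

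**Figure D3:**
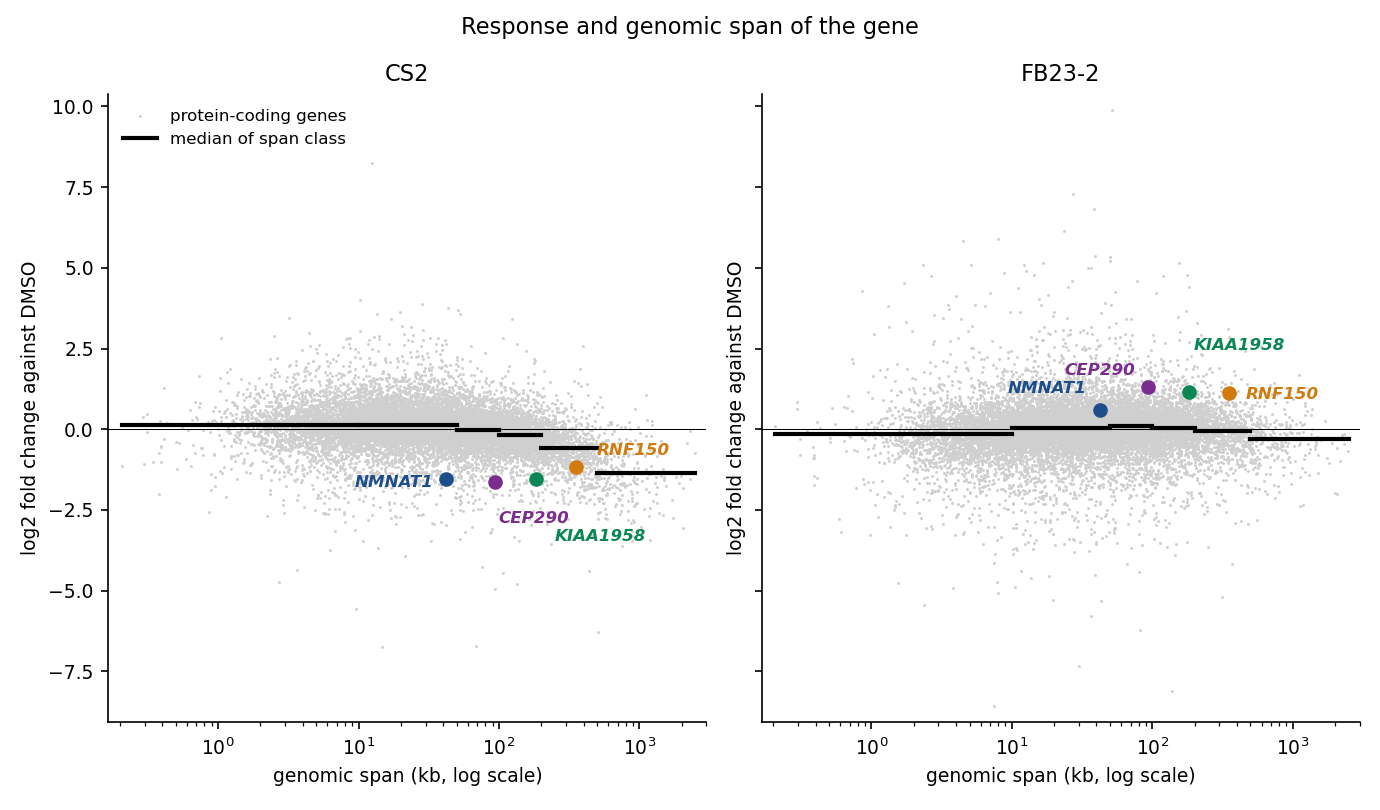
Log2 fold change against DMSO with CS2 (left) and FB23-2 (right) over genomic span (kb, log axis) for tested protein-coding genes in grey; black bars are the medians of 6 span classes. The CS2 medians fall from 0.14 at 10 to 50 kb to -1.36 above 500 kb, and RNF150 is the nearest of the 4 genes to the median of its class, -0.57.

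GGACT, a form of the sequence in which N6-methyladenosine is often found, occurred 2 times in the longest transcript of CEP290 (0.25 per kb of 7948 bases). KIAA1958 had 0.85, RNF150 1.12 and NMNAT1 1.32 per kb. The median of 14037 protein-coding genes was 0.93 per kb, with quartiles of 0.58 and 1.37, so CEP290 lay below the lower quartile and the others within them. The libraries measure RNA level and not the methyl mark.

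Neighbouring genes were not used to choose the 4, but their tests use the same 9 libraries. They were taken by order along the chromosome, at gaps of up to 2166.0 kb (NTS, on the side of CEP290). Of the 24 nearest tested protein-coding genes, 3 on each side of each gene, CS2 lowered 10 and raised 4, beside 25.3% and 24.3% of all genes, and FB23-2 lowered 4 and raised 12, beside 26.7% and 25.4%. The count raised by CS2 was 2 without DMSO replicate 2 or CS2 replicate 3, and FB23-2 lowered 7 after the correction for span and GC content. Their medians were -0.14 and 0.26, against 0.00 over all genes in both comparisons. TMTC3 starts head to head with CEP290 on the plus strand (88142296 to 88199887) and encodes an O-mannosyltransferase of the endoplasmic reticulum. It was at 82.4, 86.0 and 85.3 CPM with DMSO, 69.2, 84.5 and 93.2 with CS2, and 165, 215 and 185 with FB23-2. The log2 fold change of TMTC3 was -0.04 ± 0.10 with CS2 (adjusted p = 0.774, edgeR) and 1.15 ± 0.10 with FB23-2 (adjusted p = 1.83e-08). CEP290 and TMTC3, which start within 0.1 kb of each other, thus both stood higher with FB23-2, and TMTC3 showed no called change with CS2. C12orf29, which meets CEP290 at its 3′ end, rose with FB23-2 by 0.57 ± 0.11 (adjusted p = 1.99e-04) and was at 0.28 ± 0.11 with CS2 (adjusted p = 0.042), which did not pass when any single DMSO library, CS2 replicate 2 or CS2 replicate 3 was left out (0.20 to 0.31). Corrected for span and GC content, C12orf29 was at 0.16 with CS2 (not called) and 0.32 with FB23-2.

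LZIC starts head to head with NMNAT1 (9922113 to 9943407, minus strand). It was at 42.1, 41.7 and 41.7 CPM with DMSO, 34.6, 36.8 and 37.5 with CS2, and 37.4, 39.6 and 39.4 with FB23-2. Its log2 fold change was -0.21 ± 0.08 with CS2 (adjusted p = 0.0473, edgeR), a call that did not hold without any single DMSO or CS2 library or without FB23-2 replicate 1 or 3 (-0.22 to -0.17). With FB23-2 it was -0.11 ± 0.08 (adjusted p = 0.289). On the other side of NMNAT1, UBE4B was at -0.28 with CS2 (adjusted p = 0.00891; not called without DMSO replicate 3, -0.25, or CS2 replicate 3, -0.24) and was at -0.15 with FB23-2 (adjusted p = 0.133). With the same correction, UBE4B was at -0.12 with CS2 (adjusted p = 0.144), and LZIC was at -0.34 with CS2 and -0.32 with FB23-2, both called.

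Around KIAA1958, HSDL2 was at -0.14 with CS2 and -0.10 with FB23-2 (adjusted p = 0.23 and 0.389, edgeR), and INIP at -0.07 and 0.32 (adjusted p = 0.583 and 0.0136; the second not called without DMSO replicate 3, 0.29, or FB23-2 replicate 2, 0.20). Around RNF150, ZNF330 rose by 0.41 and 0.52 (adjusted p = 3.88e-04 and 3.05e-05), and TBC1D9 was at 0.11 with CS2 (adjusted p = 0.348) and rose by 0.46 with FB23-2 (adjusted p = 3.2e-04). After the correction for span and GC content INIP was at 0.13 with FB23-2 (not called), HSDL2 at -0.26 with FB23-2 (called) and TBC1D9 at 0.24 with CS2 (called). In the uncorrected fit none of these 4 was called lower with CS2 and higher with FB23-2.

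That pattern was called in 4 of the 24 neighbours, beside 4.18% of all genes. These were IL15 and ELMOD2 on the sides of RNF150, at gaps of 423.7 and 306.0 kb, and KIF1B and PGD beyond NMNAT1, at 225.3 and 413.1 kb. None of them was the nearest tested gene on its side. KIF1B, a kinesin motor, was at -0.38 with CS2 and 0.23 with FB23-2 (adjusted p = 1.31e-04 and 0.00792, edgeR), and PGD, an enzyme of the pentose phosphate pathway, at -0.26 and 0.28 (adjusted p = 0.00824 and 0.00465). IL15, a cytokine gene of under 1 CPM with DMSO, was at -0.79 with CS2 (adjusted p = 0.0272; not called without DMSO replicate 1 or 2 or CS2 replicate 1 or 2, -0.77 to -0.66) and 1.78 with FB23-2 (adjusted p = 4.13e-06). ELMOD2 was at -0.56 (adjusted p = 3.31e-04) and 0.28 (adjusted p = 0.0345; not called without DMSO replicate 1 or 3 or FB23-2 replicate 2 or 3, 0.22 to 0.28). After the correction for span and GC content the FB23-2 value of ELMOD2 was -0.01 (adjusted p = 0.95), and with CS2 KIF1B was at -0.16 and PGD at -0.45.

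**Figure D4:**
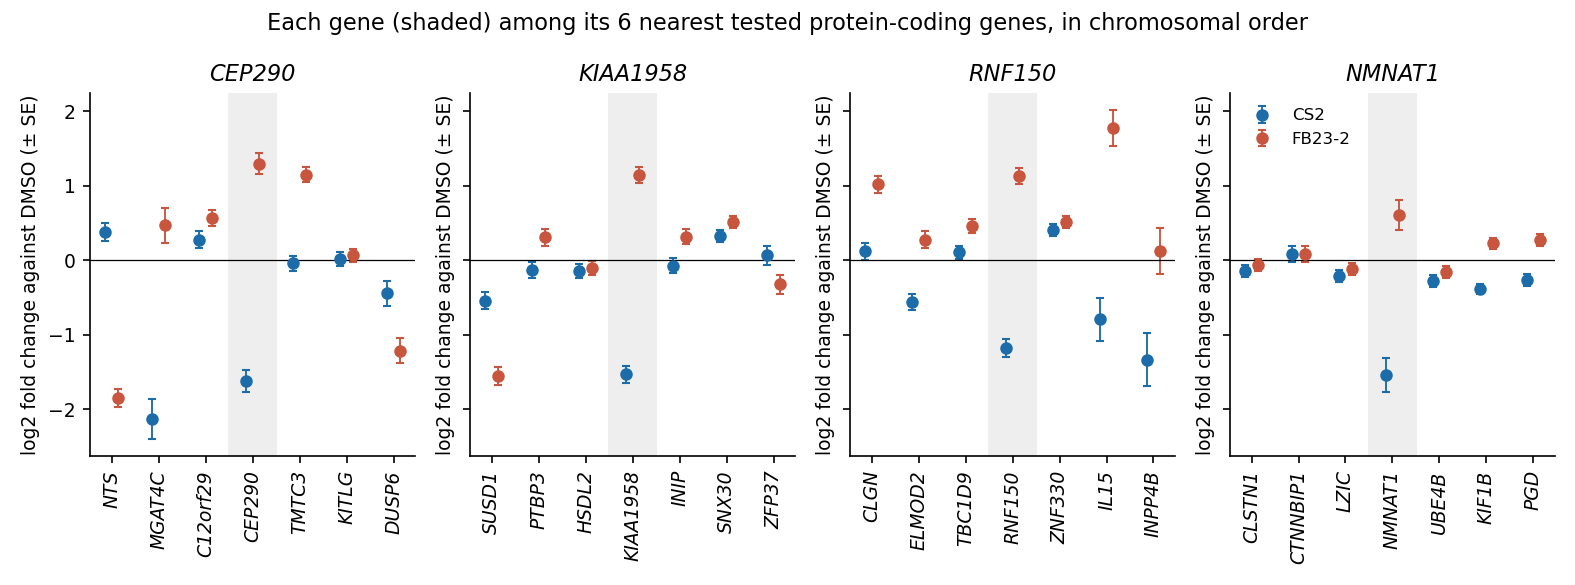
Log2 fold change against DMSO (± SE) with CS2 (blue) and FB23-2 (red) for each of the 4 genes (shaded) and the 3 nearest tested protein-coding genes on each side, in chromosomal order and not to genomic scale. TMTC3 lies beside CEP290 at 1.15 with FB23-2 and at -0.04 with CS2, while LZIC lies near 0 beside NMNAT1.

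CEP290 bridges microtubules and membrane in the transition zone together with other proteins of ciliopathies, and binds IQCB1 (NPHP5). Among 25 other transition zone genes, all tested, CS2 lowered 6 and raised 9 (median log2 fold change 0.09), beside 25.3% and 24.3% of all genes. FB23-2 lowered 5 and raised 9 (median 0.13), beside 26.7% and 25.4% of all genes. Without FB23-2 replicate 2 it lowered 6. IQCB1, the partner of CEP290, was at 27.5, 26.1 and 26.9 CPM with DMSO, 21.1, 25.8 and 26.7 with CS2, and 51.3, 60.2 and 49.7 with FB23-2. Its log2 fold change was -0.13 ± 0.10 with CS2 (adjusted p = 0.316, edgeR) and 1.00 ± 0.10 with FB23-2 (adjusted p = 1.27e-07), and it was 1.13 ± 0.10 higher with FB23-2 than with CS2 (adjusted p = 1.68e-08), a comparison in which 29.7% of all genes were higher and 30.0% lower. RPGRIP1L, a scaffold of the zone, rose with both compounds, by 0.52 with CS2 (adjusted p = 5.32e-04) and 0.36 with FB23-2 (adjusted p = 0.00809; 0.28 and not called without DMSO replicate 1, and 0.16 and not called after the correction for span and GC content).

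AHI1 and CSPP1, both genes of Joubert syndrome, were the transition zone genes called lower with CS2 and higher with FB23-2. CSPP1 was at 29.2, 32.5 and 29.8 CPM with DMSO, 19.5, 20.4 and 18.4 with CS2, and 35.3, 38.2 and 41.2 with FB23-2. Its log2 fold changes were -0.65 ± 0.10 and 0.33 ± 0.09 (adjusted p = 1.36e-05 and 0.00632, edgeR). Those of AHI1 were -0.27 ± 0.09 and 0.57 ± 0.09 (adjusted p = 0.0134 and 1.77e-05); the fall with CS2 did not pass when CS2 replicate 1 (-0.23), DMSO replicate 2 (-0.23) or DMSO replicate 3 (-0.25) was left out, and was 0.08 after the correction for span and GC content. TMEM80 and CC2D2A were called in the reverse directions: TMEM80 was at 0.99 and -0.41 (adjusted p = 9.8e-07 and 0.00791), and CC2D2A at 0.50 and -0.99 (adjusted p = 0.0225 and 1.9e-04; the first not called without DMSO replicate 1 or 2 or CS2 replicate 1, 0.44 to 0.51). B9D2, a subunit of the B9 complex, fell with both (-0.90 and -1.14, adjusted p = 8.99e-04 and 7.9e-05). CEP290 thus stood in the direction of 2 of the 25 genes of its compartment, beside 4.18% of all genes.

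CEP290 is also found in centriolar satellites, granules around the centrosome that are built on PCM1. Of 17 satellite genes and partners, CS2 lowered 5 and raised 4 (median -0.06), beside 25.3% and 24.3% of all genes. FB23-2 raised 8 and lowered 0 (median 0.15), beside 25.4% and 26.7% of all genes. The count lowered by FB23-2 was also 0 at an unadjusted p under 0.05 in edgeR and 0 in DESeq2. The count raised was 5 without DMSO replicate 1 and 7 without FB23-2 replicate 2. After correction for span and GC content FB23-2 raised 5 and lowered 4. PCM1 was at -0.05 with CS2 (adjusted p = 0.634, edgeR) and 0.25 with FB23-2 (adjusted p = 0.022; not called without DMSO replicate 1, 0.19, or FB23-2 replicate 2, 0.15, nor after the correction, 0.08). MIB1, a ubiquitin ligase of satellites, was the gene of this list called lower with CS2 (-0.58, adjusted p = 2.02e-05) and higher with FB23-2 (0.35, adjusted p = 0.0022), with 355 to 416 CPM in the DMSO libraries, 237 to 279.7 with CS2 and 469 to 563 with FB23-2. CEP63 fell with CS2 (-1.42, adjusted p = 2.02e-07) and was at -0.15 with FB23-2 (adjusted p = 0.38). CEP131 rose with CS2 by 0.74 (adjusted p = 5.31e-07) and was at 0.15 with FB23-2 (adjusted p = 0.138). The corrected values were -0.37 and 0.18 for MIB1 and 0.42 and 0.31 for CEP131, all called.

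The BBSome and the intraflagellar transport particles carry cargo through the gate that CEP290 helps to form. Of their 31 genes, CS2 lowered 8 (25.8%) and raised 11 (35.5%; median 0.11), beside 25.3% and 24.3% of all genes. FB23-2 lowered 3 (9.68%) and raised 15 (48.4%; median 0.33), beside 26.7% and 25.4% of all genes. Without FB23-2 replicate 2 it raised 18. The count lowered by CS2 was 4 without DMSO replicate 2 or 3 and 5 without CS2 replicate 2. WDR19, a subunit of the retrograde particle, rose with FB23-2 by 1.02 (adjusted p = 2.15e-08, edgeR), from 31.2 to 39.5 CPM in the DMSO libraries to 70.9 to 72.4. BBS2 was at -0.45 with CS2 and 0.68 with FB23-2 (adjusted p = 0.00371 and 5.21e-05). IFT88 was also called in both directions, at -0.36 and 0.40 (adjusted p = 0.0308 and 0.0125), but its fall was not called without any single DMSO library, CS2 replicate 1 or CS2 replicate 2 (-0.38 to -0.30), and its rise not without DMSO replicate 2 or 3 (0.38). With span and GC content corrected for, neither was called (-0.25 and 0.23, adjusted p = 0.114 and 0.128). BBS9 fell with CS2 (-0.92, adjusted p = 5.83e-04), and was at 0.03 after the correction for span and GC content.

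NMNAT1 joins nicotinamide mononucleotide to ATP in the nucleus, NMNAT2 does so at the Golgi and in axons, and NMNAT3 in mitochondria. NMNAT3 had the pattern of NMNAT1: it was at 19.4, 20.8 and 22.1 CPM with DMSO, 13.5, 13.0 and 14.1 with CS2, and 26.9, 28.1 and 24.3 with FB23-2. The log2 fold changes of NMNAT3 were -0.62 ± 0.10 and 0.35 ± 0.10 (adjusted p = 5.15e-05 and 0.00662, edgeR). NMNAT2 rose with FB23-2 by 0.38 ± 0.08 (adjusted p = 7.9e-04) and was at 0.21 ± 0.08 with CS2 (adjusted p = 0.049), which did not pass when any single DMSO or CS2 library, or FB23-2 replicate 1 or 3, was left out (0.18 to 0.23). NAMPT, which makes the substrate of these enzymes, was at 0.10 with CS2 (adjusted p = 0.382) and rose with FB23-2 by 0.55 (adjusted p = 6.29e-05). After the correction for span and GC content NAMPT was at 0.24 with FB23-2 and NMNAT2 at 0.42 with CS2, both called.

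Of 16 other genes of NAD synthesis, 12 were tested; KYNU, KMO, HAAO and IDO1 had too few reads. CS2 lowered 3 and raised 7 (median 0.26), beside 25.3% and 24.3% of all genes. FB23-2 lowered 2 and raised 8 (median 0.37), beside 26.7% and 25.4% of all genes. NADSYN1, which amidates the precursor of NAD, rose with both, by 0.63 and 0.74 (adjusted p = 1.51e-05 and 1.9e-06, edgeR), as did the mitochondrial NAD kinase NADK2, by 0.70 and 0.94 (adjusted p = 3.74e-05 and 9.61e-07). NAPRT, of the nicotinic acid route, fell with both (-1.64 and -0.89, adjusted p = 1.04e-04 and 0.00989), and QPRT, of the route from tryptophan, rose with CS2 by 1.33 (adjusted p = 2.87e-04). NMRK1, which phosphorylates nicotinamide riboside, was at -0.65 and 0.50 (adjusted p = 0.00853 and 0.0262); the first was not called without CS2 replicate 1 (-0.51), nor the second without any single DMSO library or FB23-2 replicate 3 (0.43 to 0.54). After the correction for span and GC content NAPRT (-0.52, adjusted p = 0.0902) and NMRK1 (0.31, adjusted p = 0.138) were not called with FB23-2, and FB23-2 lowered 1 of the list. NMNAT3 and NMRK1 were the genes of this list called in the directions of NMNAT1.

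Of 20 enzymes that use NAD, 19 were tested. CS2 lowered 3 and raised 9 (median 0.22), beside 25.3% and 24.3% of all genes. FB23-2 lowered 5 and raised 8 (median 0.21), beside 26.7% and 25.4% of all genes. Without FB23-2 replicate 2 it raised 6. PARP3 fell by 1.93 with CS2 and fell by 1.00 with FB23-2 (adjusted p = 2.09e-06 and 8.75e-04, edgeR), and SIRT5 rose with FB23-2 by 0.77 (adjusted p = 1.92e-06). The tankyrase genes were called in the directions of NMNAT1, TNKS at -0.42 and 0.23 (adjusted p = 2.27e-04 and 0.0207) and TNKS2 at -0.25 and 0.21 (adjusted p = 0.011 and 0.0294). Their rise was not called without any single DMSO library or without FB23-2 replicate 2 (TNKS 0.15 to 0.24, TNKS2 0.17 to 0.22), and the fall of TNKS2 was not without DMSO replicate 3 (-0.23) or CS2 replicate 1 (-0.21). Corrected for span and GC content, TNKS was at -0.02 with CS2 (adjusted p = 0.835) and TNKS2 at 0.06 with FB23-2 (adjusted p = 0.446).

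RNF150 has 11 relatives in the PA-TM-RING list, of which 9 were tested; RNF128 and ZNRF4 were not. CS2 lowered 3 and raised 1 (median -0.06), beside 25.3% and 24.3% of all genes. FB23-2 lowered 4 and raised 2 (median 0.03), beside 26.7% and 25.4% of all genes. The pattern of RNF150 was seen in 0 of 9 in edgeR, at an unadjusted p under 0.05 or in DESeq2. It held 4.18% of all genes, which is near 0 in a list of 9. RNF13, an endosomal ligase, was at -0.06 with CS2 (adjusted p = 0.721, edgeR) and rose with FB23-2 by 0.61 (adjusted p = 3.65e-04), from 12.1 to 14.4 CPM in the DMSO libraries to 18.3 to 22.4. RNF130 fell with CS2 (-0.75, adjusted p = 3.96e-05), from 15.4 to 18.6 CPM to 9.49 to 10.6, and was at -0.29 with FB23-2 (adjusted p = 0.0439; not called without DMSO replicate 1 or 2, CS2 replicate 2 or 3, or FB23-2 replicate 1 or 3, -0.29 to -0.22, nor after the correction for span and GC content, -0.22). ZNRF3, which removes Wnt receptors from the surface, fell with CS2 (-0.46, adjusted p = 1.06e-04) and was at 0.05 with FB23-2 (adjusted p = 0.655); its corrected CS2 value was -0.29. RNF133 and RNF148, at under 1 CPM with DMSO, fell with FB23-2 (-2.51 and -1.93, adjusted p = 0.0011 and 9.56e-04); with only genes of a mean of at least 1 CPM kept, FB23-2 lowered 2 of this list.

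KIAA1958 shares its Crypton origin with ZMYM2, ZMYM3, ZMYM4, QRICH1 and KCTD1. ZMYM2 was at 119, 131 and 128 CPM with DMSO, 77.5, 88.6 and 91.9 with CS2, and 121, 147 and 119 with FB23-2. It fell with CS2 (-0.55, adjusted p = 4.64e-05, edgeR) and was at 0.04 with FB23-2 (adjusted p = 0.743). ZMYM4 fell with CS2 (-0.82, adjusted p = 3.03e-07) and ZMYM3 rose with it by 0.61 (adjusted p = 1.12e-06). The count raised by CS2 was 1. It was 2 without DMSO replicate 2 or FB23-2 replicate 2, with only the 2 groups compared, and after the correction for span and GC content. With FB23-2, 0 of the 5 passed in edgeR and 0 in DESeq2; 1 was lower at an unadjusted p under 0.05, 1 was called lower without FB23-2 replicate 2 and 1 with a replicate block, and 2 were called lower after the correction for span and GC content. QRICH1 was at -0.52 with CS2 (adjusted p = 0.12) and 0.28 with FB23-2 (adjusted p = 0.376). Beside these counts, CS2 lowered 25.3% and raised 24.3% of all genes, and FB23-2 lowered 26.7% and raised 25.4%.

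CEP290 and NMNAT1 are both genes of Leber congenital amaurosis, an early loss of sight from defects of photoreceptors or their support. Of 17 other genes of the disease, 9 were tested in these tumour cells, and GUCY2D, RPE65, AIPL1, CRX, LRAT, TULP1, KCNJ13 and GDF6 were not. CS2 raised 3 and lowered 0 of the 9 (median 0.21), beside 24.3% and 25.3% of all genes. The count lowered by CS2 was 1 at an unadjusted p under 0.05 in edgeR and 0 in DESeq2. It was also 1 without CS2 replicate 3 or FB23-2 replicate 2, with only the 2 groups compared, and with a replicate block. FB23-2 raised 5 and lowered 3 (median 1.00), beside 25.4% and 26.7% of all genes. Without FB23-2 replicate 2 it raised 4. Of the 9, 0 had the pattern of CEP290 and NMNAT1 in either tool or at an unadjusted p under 0.05, beside 4.18% of all genes. LCA5, which encodes the ciliary protein lebercilin, rose with both compounds, by 1.02 and 1.30 (adjusted p = 1.18e-05 and 4.39e-07, edgeR). SPATA7, of the connecting cilium, was at 0.24 with CS2 (adjusted p = 0.375) and rose with FB23-2 by 1.41 (adjusted p = 7.87e-06).

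**Figure D5:**
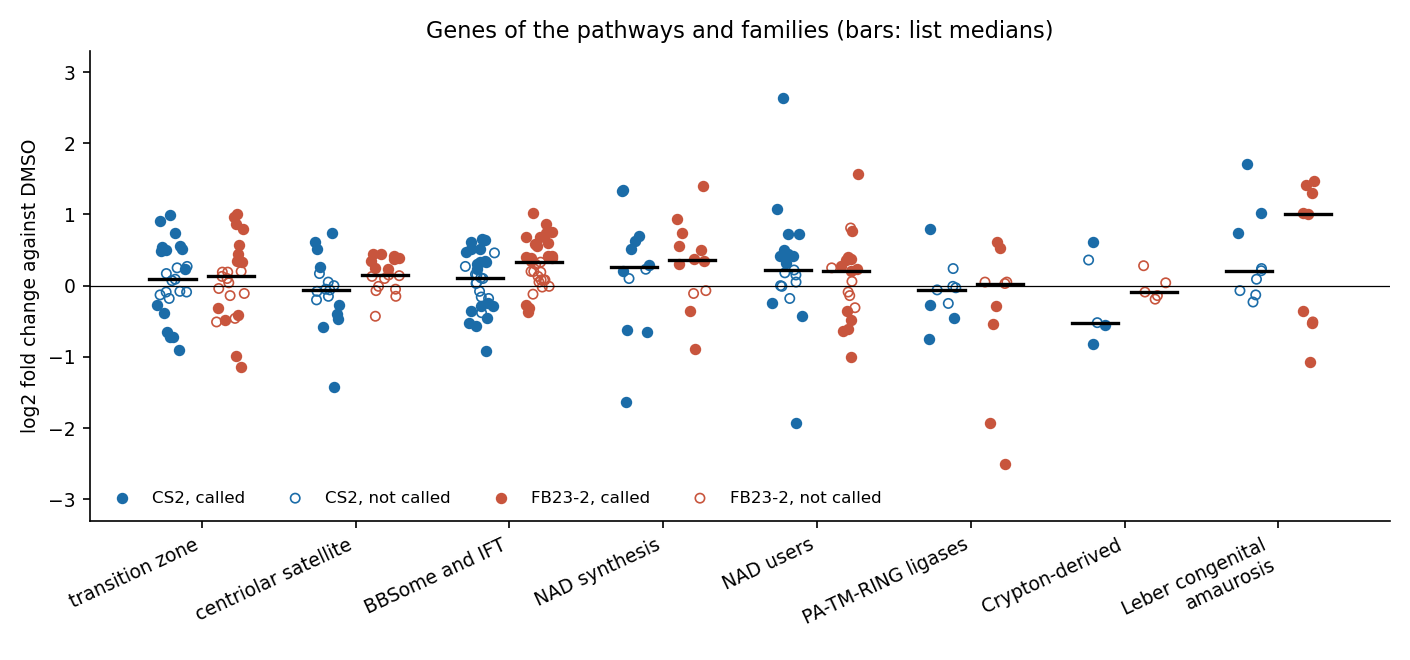
Log2 fold change against DMSO with CS2 (blue) and FB23-2 (red) for the tested genes of 8 pathway and family lists, without the 4 genes themselves; filled points passed an adjusted p of 0.05 and bars are list medians. Both colours spread to either side of 0 in most lists. FB23-2 raised 15 and lowered 3 of the 31 BBSome and intraflagellar transport genes, beside 25.4% and 26.7% of all genes.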

How the data were processed

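RNA of NCI-H69 was isolated with TRIzol and prepared as mRNA libraries, per the labels' protocols. What the authors deposited is a table of raw read counts by gene, on genome build hg38 (per the submitters' processing notes). For the aligner, counting tool, annotation and strand setting, the entry is: not given in the sources used here. The header FB23 was read as FB23-2. Of 15 labelled samples, the 6 of H82 were not analysed here.

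The 4 genes, the gene lists and the motifs were chosen with earlier results of these data known. Counts were fitted in R 4.3.3 with edgeR 4.0.16: filterByExpr (minimum count 10, minimum total 15; 19781 genes kept), TMM, and a single robust quasi-likelihood fit of all 9 libraries with no covariate. Adjusted p-values are Benjamini-Hochberg over all genes tested, with a threshold of 0.05, and SE is the log2 fold change over the root of F. The biological coefficient of variation was 0.101. The script was tested on simulated data. GENCODE 29 (GRCh38) gave positions, spans and overlaps of exons and holds 58261 of the IDs; 42343 IDs had a symbol. Promoters came from RefSeq GRCh38.p14 and all 4 genes matched.

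Named list genes were up to 4 called genes of the largest change in each comparison, those called lower with CS2 and higher with FB23-2, 10 genes listed by name, the nearest neighbour on each side and the 3 genes of the most similar pattern; those the text omits are in the counts. C5, AQP4 and the neighbours called in both directions were named after their values were seen. Alternatives were a replicate block, RLE factors, scaling by library size only, no filter on counts, a minimum mean of 1 CPM, DESeq2 1.42.0, the 2 groups compared alone, a correction for span and GC content (mgcv 1.9.3), removal of mitochondrial genes, and each library left out.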

Additional observations from a re-analysis of the deposited data

How the results depend on the processing

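Under the 18 alternatives, the log2 fold changes of CEP290, KIAA1958, RNF150 and NMNAT1 kept their direction. With each library corrected for span and GC content, the values that moved by more than 1 SD were CEP290 between FB23-2 and CS2 (2.57), KIAA1958 with CS2 (-1.26) and between FB23-2 and CS2 (2.36), and RNF150 with CS2 (-0.45) and between FB23-2 and CS2 (1.61); the cause was not tested beyond that construction. Leaving out single libraries gave, with CS2, -1.74 to -1.53 for CEP290, -1.57 to -1.46 for KIAA1958, -1.21 to -1.14 for RNF150 and -1.72 to -1.32 for NMNAT1. With FB23-2 the ranges were 1.11 to 1.40, 0.99 to 1.24, 0.96 to 1.24 and 0.53 to 0.68 in the same order. The count of genes lower with CS2 and higher with FB23-2 ran from 558 to 834 without single libraries and from 759 to 934 under the other alternatives.

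Corrected for span and GC content, some named genes changed sign: with CS2, AHI1 (0.08), PIBF1 (0.28) and BBS9 (0.03); with FB23-2, ZMYM2 (-0.17) and ELMOD2 (-0.01); between FB23-2 and CS2, SSX2IP (-0.01) and HSDL2 (-0.19).

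With group means removed, same-numbered libraries of DMSO and a treated group correlated at -0.0303 to 0.0207. Between CS2 and FB23-2 the same-numbered libraries correlated at 0.167, 0.123 and 0.049, and those of different number at -0.138 to 0.0203. Whether replicate numbers mark a shared batch of the treated groups was not tested. A fit with a replicate block gave -1.61, -1.53, -1.18 and -1.55 with CS2 and 1.29, 1.13, 1.12 and 0.61 with FB23-2 for CEP290, KIAA1958, RNF150 and NMNAT1.

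Depth limits NMNAT1 most, at 21 to 180 counts a library.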
